A study of Mus musculus with 7 samples.

Results

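The genes described here encode the nuclear subunits of the mitochondrial oxidative phosphorylation system. Members were the protein-coding genes on autosomes 1 to 19 of the mouse annotation GENCODE M21 whose symbols begin with Ndufa, Ndufb, Ndufc, Ndufs or Ndufv, with Sdha to Sdhd, with Uqcr, with Cox4 to Cox8, or with Atp5. This gave 95 gene models with 94 distinct symbols (Atp5o has 2 models), out of 20807 autosomal protein-coding genes. The 3 genes on X that carry such symbols (Ndufa1, Ndufb11 and Cox7b) were not members. The rule uses symbols and chromosomes and no measured value, though earlier results of these data were known when it was set. A promoter was taken as the 1 kb on either side of the gene start.

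Oxidative phosphorylation passes electrons from NADH through complex I, and from succinate through complex II, to ubiquinone, then through complex III and cytochrome c to complex IV, which reduces oxygen. The proton gradient built by complexes I, III and IV drives the ATP synthase. Quiescent muscle stem cells (MuSCs) hold few mitochondria and raise oxidative metabolism once activated, while some subunits of complex IV exist as alternative isoforms, several of them used in mature striated muscle.

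The study asked how the telomere-binding protein TRF2 acts in MuSCs away from telomeres. ATAC-seq, which maps accessible chromatin by Tn5 insertion, was performed on MuSCs sorted from uninjured hindlimb muscle of Control mice (2 libraries) and TRF2KO mice (2 libraries, with floxed TRF2 deleted by the tamoxifen-inducible Cre of the Pax7 locus, so in cells that express Pax7). Tamoxifen was begun at 8 to 10 weeks of age on a C57BL/6 background. CUT&Tag, which maps a protein by antibody-guided Tn5, was performed with TRF2 antibody (2 libraries) and IgG (1 library) on MuSCs of Control mice that carry Pax7 Cre and a tdTomato reporter but no TRF2 deletion; the labels put these cells 3 days after notexin injury of the tibialis anterior, and the methods give an earlier time and add gastrocnemius. The ATAC and CUT&Tag cells therefore differed in injury state. All 4 ATAC libraries carry Wildtype in their genotype label, so the groups were taken from the titles, which name the knockout. The fold of the promoter peak of Terf2, which encodes TRF2, stood at 54.3 and 48.4 for Control and at 21.5 and 18.6 for TRF2KO (log2 difference -1.46, SE 0.11, limma adjusted p = 3.0e-05). This is a label check at the gene start. The paper does not state which exons were deleted, and whether the window reaches into the deleted part was not tested.

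The MACS peak lists held between 84102 and 100521 ATAC peaks per library, 12290 and 15479 TRF2 peaks, and 656 IgG peaks. Each peak carries a fold, that is, the fragment pileup at its summit over a background. The lists imply a background near 3.35 to 4.56 fragments in the ATAC libraries, and member promoters had between 17 and 868 fragments at the summit there. In each ATAC library the lowest implied background equalled the median. Many ATAC folds were thus summit pileups scaled by 1 value per library, without a local correction. In the TRF2 libraries the summits of members with a peak in both held only 4 to 22 fragments, so a promoter without a TRF2 peak was not called at this depth rather than free of TRF2. To compare libraries of different depth, the fold of a peak was also given as its percentile among all peaks of its own list. All 8 MuSC marker genes tested (Pax7, Myf5 and Vcam1 among them) had a promoter peak in all 4 ATAC libraries. Of 5 haematopoietic markers, 4 had none, Ptprc and Itgam among them, while 3 of 5 endothelial, 2 of 4 fibro-adipogenic and 3 of 5 muscle fibre markers had peaks in all 4. Their part in the values below was not tested.

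Promoter sequences are shown for members that carry the results: Uqcrh and Ndufaf2, with the TRF2 peaks that ranked high in both libraries; Sdhd, a complex II gene whose promoter holds several of the searched patterns; Cox7a2 and its muscle isoform Cox7a1, each with a TRF2 peak in 1 library; Cox7b2, with no accessible promoter; and Cox6b2, whose fold was higher in both TRF2KO libraries. The sequences are from RefSeq on GRCm38.p6, 5′ to 3′, and run from 250 bases before to 50 bases after the RefSeq gene start. The table matched 75 of the 94 symbols. Capitals mark matches on either strand to the patterns described with the motif counts (NRF1, ETS, YY1, SP, NF-Y, CREB, ERR and the telomere repeat), and no capitals means that none of these letters occur. Uqcrh lies at chr4:116075021-116075320 on the minus strand, Ndufaf2 at chr13:108158576-108158875 on the minus strand, Sdhd at chr9:50603800-50604099 on the minus strand, Cox7a2 at chr9:79759804-79760103 on the minus strand, Cox7a1 at chr7:30183921-30184220 on the plus strand, Cox7b2 at chr5:71548156-71548455 on the minus strand and Cox6b2 at chr7:4753045-4753344 on the minus strand.
Uqcrh: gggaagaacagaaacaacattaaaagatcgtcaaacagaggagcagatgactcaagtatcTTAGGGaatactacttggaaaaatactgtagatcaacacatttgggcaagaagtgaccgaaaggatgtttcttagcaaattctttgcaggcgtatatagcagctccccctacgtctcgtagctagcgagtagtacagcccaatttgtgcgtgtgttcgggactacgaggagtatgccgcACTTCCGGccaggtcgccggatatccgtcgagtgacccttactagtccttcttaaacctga
Ndufaf2: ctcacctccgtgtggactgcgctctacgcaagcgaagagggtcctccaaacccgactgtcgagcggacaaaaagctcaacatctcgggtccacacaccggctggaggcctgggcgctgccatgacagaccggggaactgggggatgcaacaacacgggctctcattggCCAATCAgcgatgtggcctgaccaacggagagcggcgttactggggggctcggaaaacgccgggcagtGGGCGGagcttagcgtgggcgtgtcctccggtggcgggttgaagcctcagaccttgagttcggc
Sdhd: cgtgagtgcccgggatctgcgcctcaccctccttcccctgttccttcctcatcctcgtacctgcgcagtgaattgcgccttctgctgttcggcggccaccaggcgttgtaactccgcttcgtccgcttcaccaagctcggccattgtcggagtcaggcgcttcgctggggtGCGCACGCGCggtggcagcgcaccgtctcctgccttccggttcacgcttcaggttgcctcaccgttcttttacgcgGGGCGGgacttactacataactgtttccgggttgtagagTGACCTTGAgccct
Cox7a2: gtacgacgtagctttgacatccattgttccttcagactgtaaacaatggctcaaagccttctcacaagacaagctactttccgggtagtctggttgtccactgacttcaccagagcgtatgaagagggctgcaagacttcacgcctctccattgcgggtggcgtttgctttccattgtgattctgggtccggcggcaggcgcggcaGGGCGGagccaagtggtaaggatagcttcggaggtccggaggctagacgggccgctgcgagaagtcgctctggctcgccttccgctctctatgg
Cox7a1: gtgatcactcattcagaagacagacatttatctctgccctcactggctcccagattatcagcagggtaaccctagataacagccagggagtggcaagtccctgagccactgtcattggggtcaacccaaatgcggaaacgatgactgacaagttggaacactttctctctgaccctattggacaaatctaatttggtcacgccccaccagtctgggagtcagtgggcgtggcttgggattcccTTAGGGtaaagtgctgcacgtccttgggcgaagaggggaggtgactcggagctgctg
Cox7b2: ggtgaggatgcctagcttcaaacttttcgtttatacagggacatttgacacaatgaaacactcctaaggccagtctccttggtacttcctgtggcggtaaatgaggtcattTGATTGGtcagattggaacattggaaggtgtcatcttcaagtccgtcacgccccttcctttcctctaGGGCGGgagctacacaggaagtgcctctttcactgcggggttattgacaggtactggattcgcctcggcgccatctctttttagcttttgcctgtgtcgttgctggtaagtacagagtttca
Cox6b2: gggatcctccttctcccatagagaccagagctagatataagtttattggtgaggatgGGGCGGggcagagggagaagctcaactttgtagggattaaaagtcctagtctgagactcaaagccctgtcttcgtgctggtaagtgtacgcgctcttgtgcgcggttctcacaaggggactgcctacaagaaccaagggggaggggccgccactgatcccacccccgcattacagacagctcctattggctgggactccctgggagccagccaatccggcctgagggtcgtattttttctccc
The Sdhd window held 29 CpG and the Ndufaf2 window 25, against 7 in the window of Cox7a1 and 10 in those of Cox7b2 and Cox6b2.

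Nearly all of these promoters were accessible in MuSCs. A MACS peak was present within 1 kb of the gene start in all 4 ATAC libraries for 89 of 95 members (93.7%), against 61.9% of all autosomal protein-coding genes. All 35 complex I genes, all 8 complex I assembly factors, all 4 complex II genes and all 8 complex III genes had such peaks, as did 17 of 18 ATP synthase gene models, 9 of 10 complex IV genes, 3 of 4 complex II assembly factors and 5 of 8 alternative isoforms. Peaks were found at 89 and 90 members in the Control libraries and at 90 in either TRF2KO library (exact permutation test, two-sided, p = 1; the smallest p that 2 against 2 libraries can give is 0.333). Cytosolic ribosomal protein genes (69 of 71) and proteasome subunit genes (34 of 39), which most cells also express, were accessible to a like degree.

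**Figure D1:**
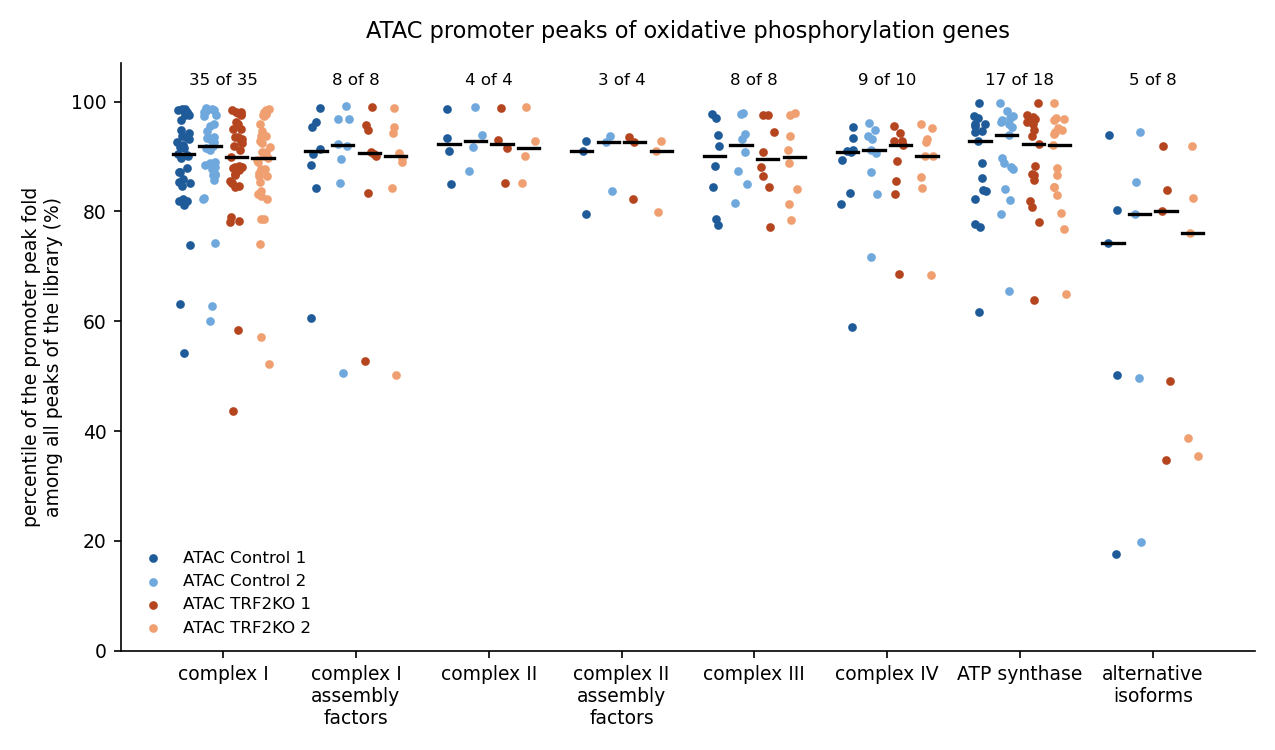
Percentile of the promoter peak's fold among all peaks of the library (y axis, %) for members with a peak in all 4 ATAC libraries, by complex (x axis). Each point is 1 gene in 1 library, black bars are medians, and the counts above give members shown of all members. Most points lie above 80, and the alternative isoforms reach down to 17.6.

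The accessible members had somewhat higher folds than coding promoters in general and lower ranks than ribosomal protein and proteasome genes. Their median fold stood at 57.3 and 50.4 (Control) and 59.2 and 52.9 (TRF2KO), against 48.8, 43.4, 51.7 and 47.2 for all 12888 coding promoters with peaks in all 4. As percentiles these were 90.8, 91.9, 90.8 and 90.1 in the same order, against 88.5, 90.1, 89.1 and 88.7 for all. The medians were 93.9, 94.6, 93.9 and 93.3 for ribosomal protein genes and 92.9, 94.7, 94.2 and 93.4 for proteasome genes. In all 4 libraries 72 members lay above the 80th percentile (80.9%, against 66.3% of all) and 43 above the 90th (48.3%, against 42.7%). The median width of the members' peaks was 1110 to 1220 bp, against 1325 to 1452 bp for all. Between 70 and 72 of the 89 had the summit within 250 bp of the gene start (78.7% to 80.9%, against 72.3% to 73.7%).

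The highest mean Control percentiles belonged to Atp5g1 (99.8), which encodes a c-ring subunit of the ATP synthase, the complex I assembly factor Ndufaf8 (98.97), Sdhb (98.8), the iron-sulfur subunit of complex II, and the complex I genes Ndufb5 and Ndufv1 (both 98.7). For Atp5g1 the folds were 187 and 151 (Control) and 199 and 197 (TRF2KO). The lowest were Cox4i2 (18.7), Cox8b (49.9), Ndufaf1 (55.6), Ndufa9 (57.2) and Ndufs4 (63.0). Ndufaf1 had folds of 12.4 and 6.84 in Control and 9.15 and 7.94 in TRF2KO, so its groups overlapped. The folds of Ndufa9, an accessory subunit of complex I, were 10.1 and 9.18 in Control and 7.09 and 9.76 in TRF2KO, which also overlapped. Genes of complex I and its assembly thus stood at both ends of the range.

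Alternative isoforms and their widespread partners differed in accessibility. Cox6a2, the heart and skeletal muscle isoform of subunit VIa, had no peak within 1 kb in any ATAC library, and the nearest peak was 1803 bp to 18454 bp away. Its partner Cox6a1 had folds of 57.3 and 47.7 in Control and 66.3 and 52.4 in TRF2KO. Cox7b2 and Cox8c, which are known from testis, had no peak nearer than 109515 bp and 19481 bp. For subunit IV, Cox4i1 had folds of 58.2, 56.0, 70.7 and 64.7 (Control replicates 1 and 2, then TRF2KO replicates 1 and 2), while those of Cox4i2 were 4.14, 3.42, 5.72 and 5.45. For subunit VIII, Cox8a had folds of 51.6, 45.4, 52.4 and 52.9, and the muscle isoform Cox8b 8.98, 6.66, 8.23 and 5.90. The muscle isoform of subunit VIIa was more accessible. Cox7a1 had folds of 29.0, 30.4, 28.4 and 21.3, below those of Cox7a2 at 86.3, 76.5, 91.3 and 90.6. Of 5 muscle fibre markers, 3 also had peaks in all 4 libraries, and their part in the peaks of the muscle isoforms was not tested. Cox6b2 had folds of 21.4, 21.2, 35.9 and 30.6, beside 35.0, 34.7, 39.8 and 39.3 for Cox6b1. Ndufa4l2, the hypoxia-responsive relative of Ndufa4, had folds of 75.02, 63.9, 65.2 and 61.3, but its peak only reached into the window, with summits at -1898 to -1831 bp from the start; Ndufa4, known as a complex IV subunit despite its name, had 54.8, 39.6, 48.7 and 49.7 near its start.

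For the other members without peaks in all 4 libraries, a peak lay just outside the window or at another annotated start. For Cox7a2l, which encodes a factor in respiratory supercomplexes (chr17:83501918-83517330, minus strand), the nearest ATAC peak was 2382 to 2442 bp from the gene start, but it covered another annotated transcript start at 83514330, where folds were 55.9, 52.6, 68.8 and 59.2 and both TRF2 libraries had a peak (5.40 and 4.32). Sdhaf1, a complex II assembly factor, had a peak of fold 117 in Control replicate 1 that ended 1035 bp from the start, just outside the window, and peaks of 99.9, 127 and 113 in the other libraries that ended 734 to 993 bp from it. The second Atp5o model (start 91926982) had no peak within 3951 bp, while the model that starts at 91931687 on chromosome 16 had folds of 49.7, 39.2, 43.2 and 40.6.

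Regions of both consensus lists, which the authors built over 3 peak callers for each genotype, lay within 1 kb of 89 of 95 members, against 61.6% of all genes. Atp5g1 and Ndufa6, which had MACS peaks in all 4 libraries, were in neither list, also within 3 kb. Cox6a2, Cox7b2 and Cox8c were in neither as well.

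TRF2 peaks were called in both libraries at a minority of these promoters, a share close to that of accessible promoters in general. TRF2 replicate 1 had a peak within 1 kb of 47 members and replicate 2 of 45, and 34 members had one in both (72.3% of the first and 75.6% of the second). This is 35.8% of the 95 members, against 23.3% of all coding genes. Among genes with ATAC peaks in all 4 libraries the shares were 38.2% of members and 37.5% of all. No member had an IgG peak, against 21 of all genes, a share of 0.101%. The counts were 15 of 35 for complex I, 4 of 8 for its assembly factors, 3 of 4 for complex II and 3 of 4 for its assembly factors, 2 of 8 for complex III, 2 of 10 for complex IV, 5 of 18 for the ATP synthase and 0 of 8 for the alternative isoforms. For ribosomal protein genes the count was 23 of 71, and for proteasome genes 15 of 39.

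**Figure D2:**
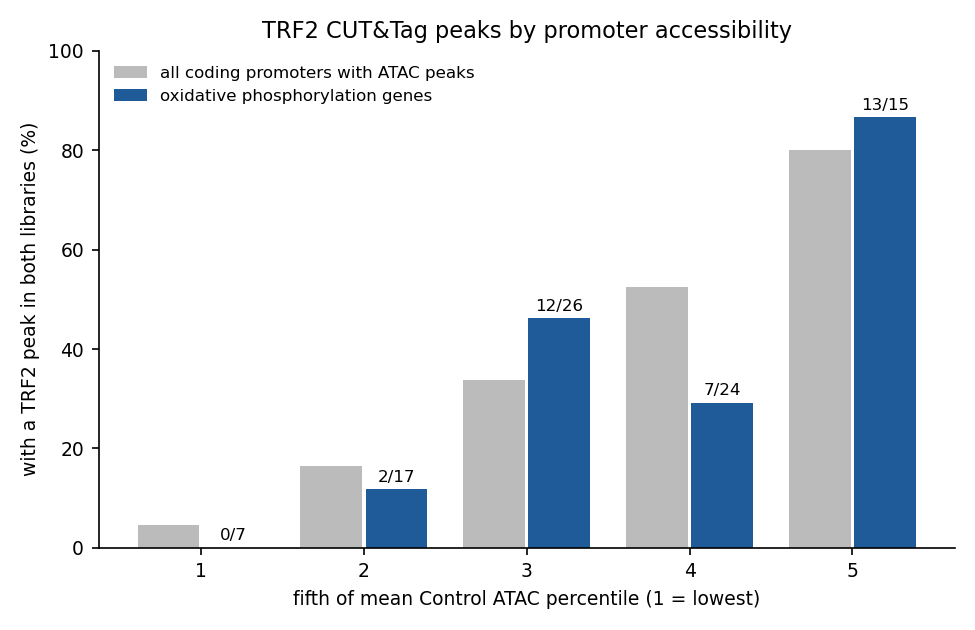
Share of promoters with a TRF2 peak in both CUT&Tag libraries (y axis, %) in 5 equal bins of the mean Control ATAC percentile (x axis), for all coding promoters with ATAC peaks in all 4 libraries (grey) and for the members (blue, counts above the bars). Over all promoters the share goes from 4.65% in the lowest bin to 80.1% in the highest, and the members stand below all promoters in the lower 2 bins and in bin 4.

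TRF2 peaks followed accessibility. Over all coding promoters the share with TRF2 in both libraries was 4.65%, 16.4%, 33.8%, 52.5% and 80.1% from the lowest to the highest of 5 equal bins of the mean Control ATAC percentile. The members were 0 of 7, 2 of 17, 12 of 26, 7 of 24 and 13 of 15 in the same bins. At the share of each bin, 36.5 of the 89 would have TRF2 in both, and 34 had. The median Control percentile was 94.4 for members with TRF2 in both libraries, 91.4 for the 24 with TRF2 in 1 library and 85.5 for the 31 accessible members with none. The ATAC cells came from uninjured and the CUT&Tag cells from injured muscle, and how far that difference enters was not tested.

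The highest mean TRF2 folds were at Uqcrq and Uqcrh of complex III, at the complex I assembly factor Ndufaf2, and at the complex I subunit genes Ndufa8 and Ndufv3. Uqcrq had folds of 10.6 and 10.9, each from 22 fragments. Ndufaf2 had 8.47 and 12.8, from 15 and 21 fragments. Uqcrh had 9.14 and 9.06, from 22 and 20 fragments. The 2 libraries thus gave similar values at both complex III genes and values further apart at Ndufaf2. That contrast rests on few fragments and was not tested. For Ndufa8 the folds were 6.62 and 9.23, and for Ndufv3 6.97 and 8.65. Over the 34 members the median was 6.24 in replicate 1 and 7.05 in replicate 2, beside 6.49 and 6.86 over all 4843 genes with TRF2 in both. The TRF2 summit lay within 250 bp of the gene start for 27 and 28 of the 34 (79.4% and 82.4%, against 73.7% and 74.8% over all), and a median of 80.5 and 91.5 bp from the ATAC summit of Control replicate 1. Some high folds were seen in 1 library only, as at Cox7a1 (10.3) and Uqcrb (9.85) in replicate 1.

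**Figure D3:**
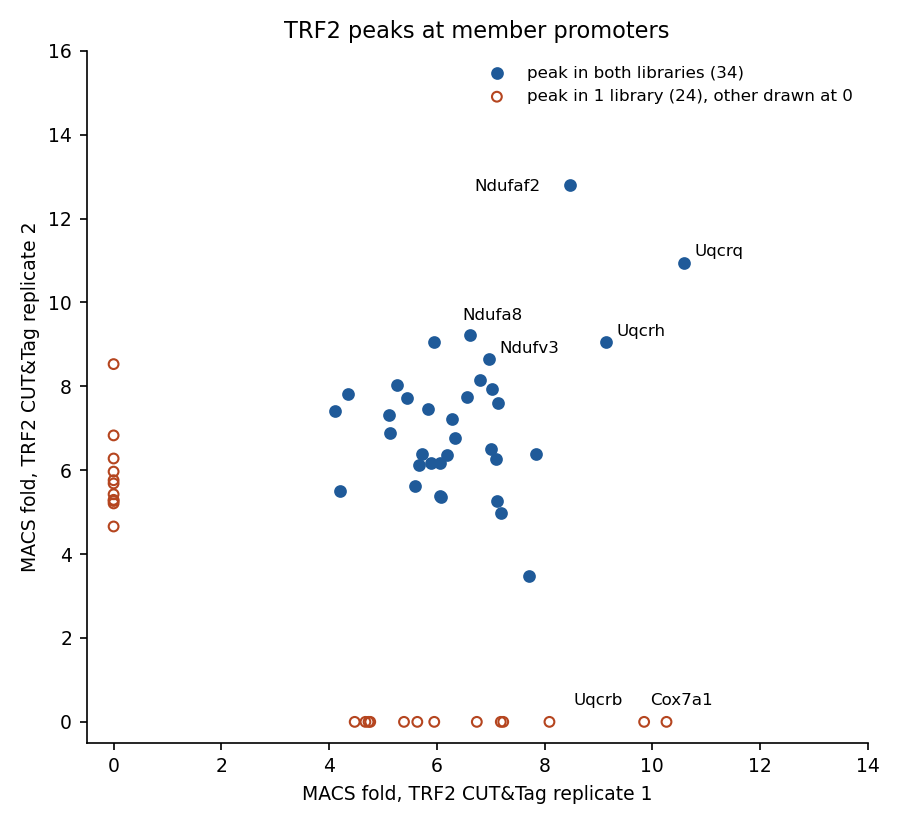
MACS fold of the TRF2 peak within 1 kb of the gene start in CUT&Tag replicate 1 (x axis) and replicate 2 (y axis) for the 58 members with a peak in either library. Filled points are the 34 with a peak in both, and open points the 24 with a peak in 1 library, drawn at 0 for the other. Uqcrq, Uqcrh and Ndufaf2 stand above the rest, and Cox7a1 and Uqcrb have high values in replicate 1 alone.

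In complex II, which oxidises succinate, TRF2 peaks were present in both libraries at Sdha (6.35 and 6.77), the flavoprotein, at Sdhb (5.45 and 7.71) and at Sdhd (6.06 and 6.17), a membrane anchor. Sdhc, the other anchor, had a peak in replicate 1 alone (5.64). Their ATAC folds spanned 34.9 to 146 over the 4 libraries. Sdhb had 133 and 122 in Control and 146 and 145 in TRF2KO, and Sdha 38.4, 34.9, 39.1 and 36.5. Sdhc had 71.6, 60.6, 71.1 and 66.3, and Sdhd 58.5, 49.7, 63.1 and 53.1. After centring, the log2 difference lay between -0.06 and 0.09 for these 4 genes, with no adjusted p under 0.05.

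Many of the members share their promoter with a gene on the other strand. A divergent coding gene began within 1 kb upstream for 22 members, all of them accessible, which is 24.7% of the 89, against 10.9% of all accessible coding promoters. The starts were 10 to 336 bp apart (median 103.5 bp). The partners included Gdf9 at Uqcrq, Lrrc41 at Uqcrh, the DNA repair gene Ercc8 at Ndufaf2, Rps28 at Ndufa7 and Timm8b, a mitochondrial import gene, at Sdhd. TRF2 was present in both libraries at 13 of these 22 and at 21 of the other 67 accessible members (59.1% and 31.3%), beside 56.8% and 35.1% over all accessible coding promoters. The median Control percentile was 93.2 at the divergent and 89.0 at the other members. A peak at such a promoter cannot be assigned to 1 of the 2 genes.

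The NRF1 site was found in a larger share of the members' promoters than of all promoters, and the G-quadruplex pattern in a smaller share. Shares of the YY1, ERR and CREB sites were also larger, but near the gene start each was in at most 4 members. Windows ran from 250 bases before to 50 after the GENCODE start and were read on both strands. The NRF1 site (the letters GCGCA, any base, then GCGC), bound by a main activator of respiratory chain genes, was in 17 of 95 members (17.9%, against 6.17% of all coding promoters) and in 19.1% of the accessible members, against 9.61% of all accessible promoters. The YY1 site AAGATGGCG was in 4 members (4.21%, against 1.70%; 4.49% of the accessible ones, against 2.61%), and in the 500 bases around the ATAC summit of Control replicate 1 in 15 of 89 (16.9%, against 4.45%). The ERR site TCAAGGTCA was in Atp5g3 and Sdhd (2.11%, against 0.49%; accessible 2.25%, against 0.35%). The ETS site CCGGAAGT was in 6 members (6.32%, against 4.80%), Uqcrq and Uqcrh among them, but among accessible promoters the order turned (6.74%, against 7.26%). The CREB site TGACGTCA was in 4 (4.21%, against 2.43%, and accessible 4.49%, against 3.51%). The NF-Y site CCAATCA was in 8 (8.42%, against 8.62%, and accessible 6.74%, against 10.1%).

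The SP site GGGCGG was in 41 members (43.2%, against 43.7% of all), and in 43.8% of the accessible members, against 62.4% of all accessible promoters. A G-quadruplex pattern, the kind of fold to which TRF2 is known to bind, was searched as 4 G runs, each of 3 G or more, separated by 1 to 7 bases. It was in 12 members (12.6%, against 21.003% of all), 13.5% of the accessible ones, against 28.2% of all accessible promoters, and around the ATAC summit in 33.7% against 39.2%. It overlapped an SP site in 7 members, and no other pair of these patterns overlapped. The pattern was in 6 of the 34 members with TRF2 in both libraries (17.6%) and in 6 of the other 61 (9.84%). These 61 include members without ATAC peaks in all 4 libraries. Over all promoters the shares were 28.6% with TRF2 in both and 28.0% without, the latter among accessible promoters only, so the bases differ. The telomere repeat TTAGGG, a pattern added after the data were seen, was in 12 members (12.6%, against 11.4%) and in 5 of the 34 with TRF2 in both. The median GC content of the accessible members' windows was 56.7%, against 60.3% of all. These are letter matches and not measured sites.

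**Figure D4:**
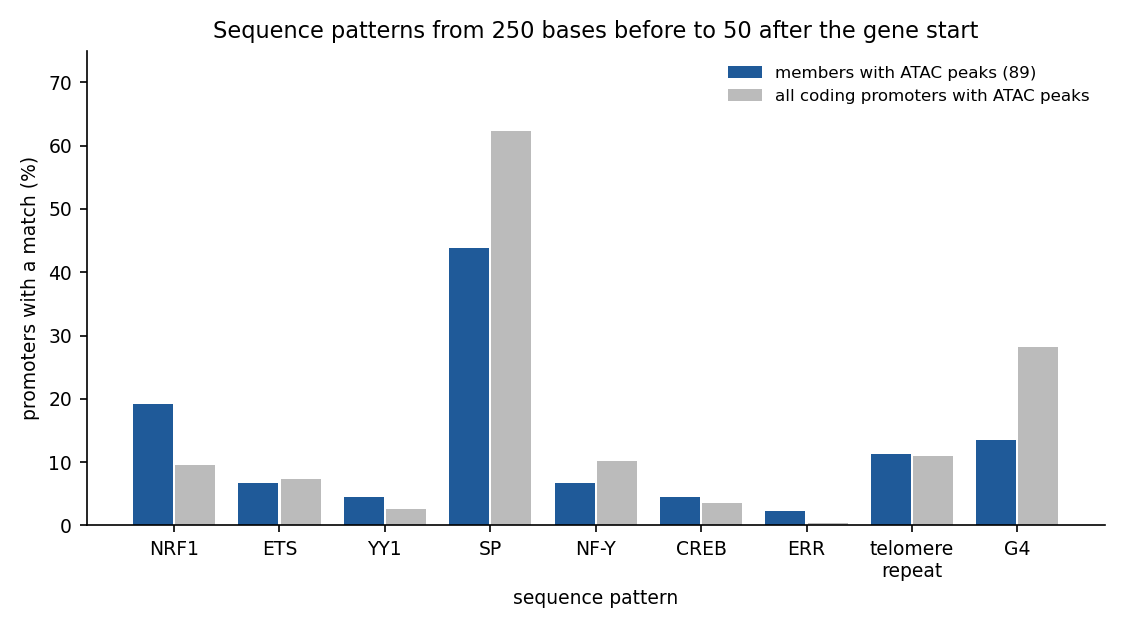
Share of promoters with a match (y axis, %) for each pattern (x axis) among the 89 members with ATAC peaks in all 4 libraries (blue) and all coding promoters with such peaks (grey). NRF1 stands higher in the members (19.1% against 9.61%), and SP and the G-quadruplex pattern (G4) stand lower.

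Of these promoters 1 passed the test for a difference in accessibility between TRF2KO and Control. The log2 folds were centred on each library's median and compared by limma over the 12888 coding promoters with peaks in all 4 libraries. At an adjusted p under 0.05, 1 of the 89 members was lower in TRF2KO and none was higher, against 0.706% of all promoters lower and 0.279% higher. At an unadjusted p under 0.05 the number was 9 members (10.1%, against 14.4% of all). The median log2 difference of the members was -0.016, beside 0.0093 for all, and 42 of the 89 were positive (47.2%, against 52.5% of all). The labels number the 2 libraries of a group but do not say that they come from separate animals, so the p-values measure the spread between these libraries, which may be technical.

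**Figure D5:**
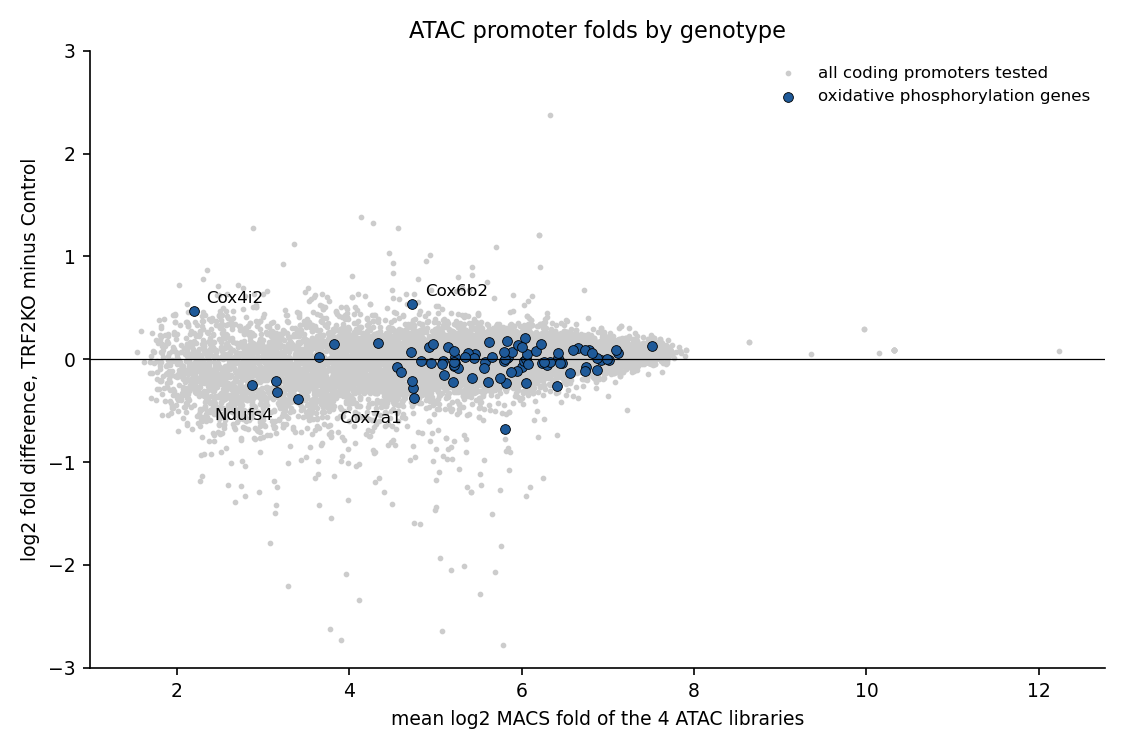
Log2 fold difference of the ATAC promoter peak, TRF2KO minus Control (y axis), against the mean log2 MACS fold of the 4 libraries (x axis). Grey points are all 12888 coding promoters tested and blue points the 89 members. Most members lie close to 0, and Cox6b2 and Cox4i2 lie highest among them (0.53 and 0.47).

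Cox6b2, the testis isoform of complex IV subunit VIb, had the largest positive difference. Its folds of 21.4 and 21.2 in Control lay below the 35.9 and 30.6 in TRF2KO, and the log2 difference was 0.53 (SE 0.12, limma adjusted p = 0.075, with 0.013 to 0.36 over its alternatives on the log2 scale). Cox4i2, with folds of at most 5.72 in every library, had a difference of 0.47 (SE 0.22, limma adjusted p = 0.37). Cox7a1 had -0.37 (SE 0.14), with a Control replicate 1 value close to that of TRF2KO replicate 1. None of these passed the test. Ndufaf2, with its high TRF2 folds, had ATAC folds of 95.7 and 84.6 in Control and 85.5 and 75.8 in TRF2KO, which overlapped before centring (log2 difference -0.26, SE 0.07, limma adjusted p = 0.11). At Uqcrq the values were 116, 98.3, 119 and 120, and at Uqcrh 104, 95.6, 117 and 111 (log2 differences 0.07 and 0.09).

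By rank within each list, 28 of the 89 members were lower in both TRF2KO libraries than in both Control libraries, and 6 were higher. These shares, 31.5% and 6.74%, stand beside 28.6% and 9.13% of all promoters. On the folds as deposited the direction turned, with 2 members lower and 25 higher (2.25% and 28.1%, against 7.32% and 35.2% of all). The lists differ in length, with more peaks in both Control lists, and among coding promoter peaks alone 24 members were lower and 10 higher (27.0% and 11.2%, against 25.1% and 18.7% of all). A gap in percentile is therefore a difference in rank within these lists and not a tested change. Among the largest gaps downward, as the distance in percentile points between the nearest libraries of the 2 groups, were those at Ndufs4 (-4.32), Ndufb8 (-3.23), Atp5o (-2.10) and Ndufs3 (-2.10). Ndufs4, an accessory subunit of complex I, had folds of 13.6 and 10.1 in Control and 11.0 and 8.40 in TRF2KO. Those of Ndufb8 were 32.0 and 25.4 in Control and 25.6 and 24.7 in TRF2KO. At both genes the deposited folds overlapped between the groups and the percentiles did not. Upward, Cox4i2 (14.9) and Cox6b2 (2.89) had the largest gaps, and Ndufs7, Atp5b and Ndufaf4 had gaps of 0.15, 0.085 and 0.053. The counts moved with each library left out, as did those of all promoters. Without Control replicate 1, 70 members were lower and 7 higher (77.8% and 7.78%, against 66.9% and 11.4% of all). Without Control replicate 2 the counts were 30 and 33 (33.7% and 37.1%, against 32.2% and 42.8%). Without TRF2KO replicate 1 they were 47 and 10 (52.8% and 11.2%, against 44.3% and 16.6%), and without TRF2KO replicate 2, 36 and 14 (40.4% and 15.7%, against 39.5% and 21.9%).

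By symbol, 13 of 35 complex I genes had a positive log2 difference (37.1%, against 52.5% of all promoters). Their median was -0.02, against 0.0093 for all. In rank, 18 were lower without overlap (51.4%, against 28.6% of all) and 1 was higher (2.86%, against 9.13%). An unadjusted limma p under 0.05 was found at 5 of the 35, beside 14.4% of all promoters. The 9 accessible genes with complex IV symbols had positive differences, between 0.02 and 0.15 (median 0.12). By rank the 2 groups overlapped at each of them, with 0 lower and 0 higher (against 28.6% and 9.13% of all). Of these 9 genes, 0 passed in either direction by limma, against 0.706% of all promoters lower and 0.279% higher. At an unadjusted p under 0.05 there were 0, against 14.4% of all. With Ndufa4 (-0.02) counted in complex IV, a grouping chosen after the data were seen, 9 of 10 were positive (median 0.10). Under other scalings the 9 genes stayed positive, and complex I had 10 to 22 of 35 positive, the latter without centring. In that setting 75.8% of all promoters were positive. Above the median of all promoters stood 10 of 35 complex I genes both with and without centring, and 14 with GC correction. The 9 complex IV genes stood above it in each of these settings. Without TRF2KO replicate 2 or Control replicate 1, 7 of those 9 genes were positive. The number was 8 without TRF2KO replicate 1 and 9 without Control replicate 2. The medians were -0.03 for the ATP synthase (8 of 17 positive), -0.02 for complex II (2 of 4) and 0.02 for complex III (4 of 8). The signs of these medians depended on the scaling. Without centring they were 0.08 for complex I, 0.08 for complex II, 0.12 for complex III, 0.22 for complex IV and 0.07 for the ATP synthase, beside 0.11 for all promoters. With GC correction they were 0.0007, 0.01, 0.06, 0.11 and 0.03 in the same order. Complex III had -0.06 without Control replicate 1 and -0.01 without TRF2KO replicate 1. Without Control replicate 1 complex II had 0.01, and without Control replicate 2 the ATP synthase had 0.0057.

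Other genes of the pathway, from a list of cytochromes, assembly factors and regulators, were also accessible. Of 28 genes for cytochrome c, cytochrome c1 and further assembly factors, 27 had ATAC peaks in all 4 libraries (96.4%, against 61.9% of all), with Cox19 at 0 of 4. Regions of both consensus lists lay within 1 kb of all 28, Cox19 included, against 61.6% of all genes. TRF2 was in both libraries at 13 of the 27 (48.1%, against 37.5% of all accessible promoters), Foxred1 highest in replicate 1 (12.1 and 11.2). None of the 27 passed limma in either direction, against 0.706% of all promoters lower and 0.279% higher. At an unadjusted p under 0.05 there was 1, against 14.4% of all, and the median log2 difference was -0.0056. Of 14 regulators of mitochondrial genes, all had ATAC peaks in all 4 libraries. TRF2 was in both libraries at 7 (50%, against 37.5% of all accessible promoters): Esrra, Gabpa, Yy1, Polg, Tfam, Tfb1m and Tfb2m. Tfam, which packages mitochondrial DNA, had TRF2 folds of 7.66 and 10.1 and ATAC folds of 101, 78.5, 103 and 102. Nrf1 had ATAC folds of 37.1, 38.5, 40.7 and 41.1 and no TRF2 peak. Ppargc1a, a coactivator of oxidative genes, had the lowest ATAC folds of the list at 7.82, 5.40, 8.69 and 7.26. None of the 14 passed limma, and 1 had an unadjusted p under 0.05, against 14.4% of all promoters. The promoter peak of Gabpa is also that of Atp5j, with the same folds of 91.6, 90.2, 108 and 99.9.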

How the data were processed

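The files were peak lists of 7 libraries on mm10. The methods describe CUT&Tag reads and name ATAC only in their heading: reads were trimmed (Cutadapt), aligned with Bowtie2 in local mode, stripped of duplicates and non-unique pairs (Picard, SAMtools), and peaks were called with MACS3, SEACR and GoPeaks. The labels' processing notes name Bowtie2 2.4.4 and MACS3 3.0.0 for CUT&Tag and Bowtie2 2.5.4 and MACS3 3.0.2 for ATAC. A Tn5 shift and the use of IgG in peak calling were not given in the sources used here. The authors' MACS lists give a fold ratio over background, -log10 p-values and -log10 q-values per peak. The deposited SEACR signal, scores and DiffBind score were not used; the GoPeaks and SEACR regions and DiffBind consensus lists (1 per genotype, taken as pooled) gave positions only. The lists hold no read counts per region, and no count model was used. Summit fragments were worked out from fold and p-value, taking the fold to have 1 added to both pileup and background.

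The highest fold within 1 kb of the GENCODE M21 start (overlap of at least 1 bp) was taken per gene. Members and gene lists were chosen with earlier results of these data known. Genes named are those without ATAC peaks in all 4 libraries, isoforms and partners, complex II, the 5 highest and lowest percentiles, the 5 highest TRF2 folds and the 5 largest gaps, of which 1 member is not reported here; others (Uqcrb, Foxred1, Nrf1, Tfam, Ppargc1a, Cox19) were named after their values were seen. limma 3.58.1 (trend, Benjamini-Hochberg) ran in R 4.3.3, with no pseudocount beyond that of the folds, and was tested on simulated data. Single values used exact permutation tests (scipy 1.17.1). Deviations of same-numbered libraries correlated at -0.082 over genes, so the numbers were not treated as pairs. No peak passed the end of a GRCm38 chromosome.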

Additional observations from a re-analysis of the deposited data

How the results depend on the processing

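Counts of accessible members held within 80 to 91 of 95 over other windows, callers (SEACR 80, GoPeaks 87), a stricter q and each library left out, and members in both consensus lists were 89 or 90. The difference in members with a peak between genotypes was 0.5 and lay at 0 to 1 without each library, and at 4.5 with SEACR. TRF2 in both libraries fell to 18 members at -log10 q of at least 5. The share of all genes at this q is not given here, so members cannot be compared with other promoters there. Either library had TRF2 at 58 members. Replicate 1 had it at 47 and replicate 2 at 45, beside 6207 and 6506 of all 20807 genes. For the genotype fit, promoters called (127) numbered 70 with quantile normalization, 322 with the replicate block and GC correction, 152 with the replicate block alone, 16 without the trend, 81 with absent peaks imputed, 283 at 3 kb, 48 for the nearest peak and 8 on percentiles, and 56 to 355 without each library (56 without Control replicate 1, 84 without Control replicate 2, 339 without TRF2KO replicate 1 and 355 without TRF2KO replicate 2). The number of lower members (1) became 0 without the trend, at 3 kb and on percentiles. It stayed 1 without each library and with the replicate block. The number of higher members (0) became 1, Cox6b2, without centring, with block and GC correction and at 3 kb, and 0 to 1 without each library (1 without TRF2KO replicate 2). The members' median was 0.087 without centring, where all promoters had a median of 0.11 and calls split 63 higher to 112 lower rather than 36 to 91, 0.021 with GC correction, with or without the block, and 0.0032 at 3 kb; it was -0.017 to 0.0027 without each library. Members lower by rank (28) numbered 2 on deposited folds, with 25 higher, and 30 to 70 without each library; those higher (6) numbered 7 to 33 without each library and 10 among coding promoter peaks. Around the ATAC summit, in windows of 500 bases, the share with a match was 16.9% for YY1, 59.6% for SP and 33.7% for the G-quadruplex pattern. The cause of these changes was not tested. The correlation of same-numbered libraries, -0.082 over genes, cannot show whether they shared an animal or a batch. The depth of 4 to 22 fragments limits the TRF2 calls, and 2 libraries per group limit every genotype comparison.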
